A study of Mus musculus with 11 samples.

Results

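The response of memory-derived CD8 effector T cells to a last, short stimulation through the T cell receptor was measured on 6 of the 11 microarrays of the series. All cells came from pmel-1 transgenic mice, whose CD8 T cells carry a single T cell receptor that recognises the melanocyte antigen gp100. CD8+ T cells were enriched for a CD44+ population, which the labels call central memory, and activated on plate-bound antibodies to CD3 and CD28. After a week of growth they were restimulated with allogeneic feeder cells carrying the human gp100 peptide, and they were kept in interleukin 2 throughout the 2 weeks of culture. The 3 stimulated samples then received CD3/CD28 stimulation for 4 hours, the 3 unstimulated samples received none, and total RNA was extracted from both. The samples were chosen by their titles, and each of 3 independent experiments gave 1 sample of each kind. The other 5 arrays, of effectors derived from CD44- naive cells, entered only the shared estimate of spread and the comparison by origin given at the end. One transgenic receptor and feeder cells in the culture limit the samples as a model of a natural response.

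In a T cell, joint engagement of CD3 and CD28 opens calcium, Ras and NF-kappaB signalling within minutes and transcription of cytokine genes within hours. Cells that had been resting turn to growth: they take up amino acids, glucose and iron, make ribosomes, and silence genes that keep lymphocytes quiescent and motile. Best known are the cytokines, the early transcription factors and the activation receptors. The description below therefore leads with other genes.

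Every gene was read as 1 probe set, the single-symbol probe set with the highest mean, and 14795 of 18193 genes passed a filter on low values and were tested. Levels and differences are on the log2 scale, so that a difference of 1 is a 2-fold change. Each difference is stimulated minus unstimulated (3 against 3 arrays) with its standard error (SE), and a gene is said to have risen or fallen when limma's adjusted p, by Benjamini-Hochberg over all genes tested, was below 0.05. By this test 4675 genes changed (31.6% of those tested), 2119 rose (14.3%) and 2556 fell (17.3%). A change of at least 2-fold was found for 577 of the genes that rose and 753 of those that fell. All 3 stimulated arrays lay above all 3 unstimulated ones for 3244 genes (21.9%) and below them for 3649 genes (24.7%). The median difference over all genes tested was 0.0025. The arrays had been quantile normalised, so every difference is relative to the other transcripts, and in RNA of a whole culture less RNA per cell cannot be told apart from fewer cells of a type.

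The third unstimulated array stood apart from its group. On the first principal component of the 6 arrays, which held 71.9% of the variance, the unstimulated arrays had scores of 30.1, 19.97 and 61.3, and the stimulated arrays had scores of -36.8, -38.9 and -35.8. Unstimulated array 3 therefore lay farther from the stimulated arrays than the other two did. Among the 4675 changed genes it was the unstimulated array farthest from the stimulated mean for 3615 genes (77.3%). Without it 3576 genes passed, 1638 of them higher (11.1%) and 1938 lower (13.1%), and 1587 of the 2119 genes that rose and 1903 of the 2556 that fell were among them. None of the 4675 genes changed sign. Its removal lowered the median rise of the genes that rose from 0.73 to 0.62 and moved the median of those that fell from -0.76 to -0.67. Within experiments 1, 2 and 3 the median difference of the genes that rose was 0.69, 0.59 and 0.97, and that of the genes that fell was -0.71, -0.64 and -0.96.

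**Figure D1:**
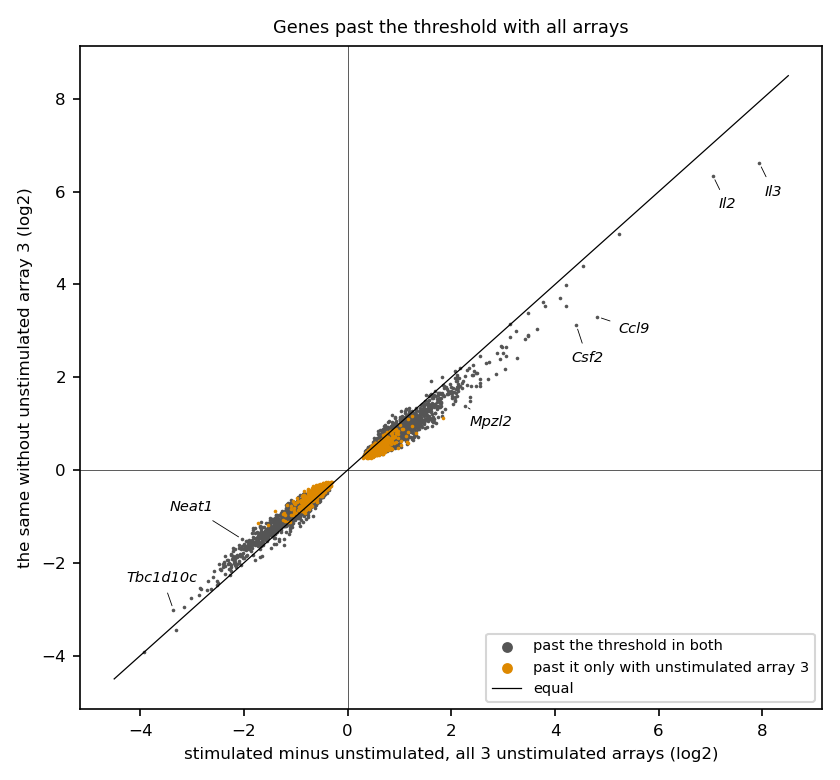
Each point is 1 of the 4675 genes that passed the threshold with all arrays. The x axis gives its log2 difference (stimulated minus unstimulated) with all 3 unstimulated arrays and the y axis the same without unstimulated array 3. Most points lie nearer to 0 on the y axis than on the x axis, none changes sign, and orange points no longer passed.

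The labelled cell type was checked against marker genes. All 10 CD8 T cell markers with a probe set were above the filter level of 1.54 on all 6 arrays, and their mean level was 8.40 to 8.53 on the unstimulated and 8.04 to 8.08 on the stimulated arrays. Cd4 was below the level on all 6. B cell markers had a mean level of 1.28 to 1.40 without and 1.25 to 1.40 with stimulation, and 4 of 9 were below the level on every array. The mean of 11 myeloid and dendritic cell markers was 2.38 to 2.75 and 2.35 to 2.42. For 5 markers of NK cells and other T cell lineages it was 1.70 to 1.76 and 1.71 to 1.82. For 6 red cell and platelet markers it was 1.21 to 1.56 and 1.31 to 1.52. Only 1 of the 11 myeloid and dendritic cell markers was below the level on every array. Itgax had means of 6.27 without and 5.58 with stimulation, and Cd68 of 5.2 and 4.8. Of the 10 myeloid and dendritic cell markers tested 2, Itgax and Fcgr3, fell and 0 rose (0 and 0 without unstimulated array 3). With all arrays 17.3% of all genes tested fell and 14.3% rose, so the share that fell lies near that of all genes. Of the 6 B cell markers tested 1, Cd79b, fell and 1, Pax5, rose, both at levels near the filter level. Pax5 did not pass with the mean of its probe sets (limma adjusted p = 0.422). The CD8 markers were lower on average after stimulation, with no overlap of the groups: Cd3g and Cd8a fell by 0.76 ± 0.13 and 0.78 ± 0.19. The count of CD8 markers that fell was 6 of 10 with all arrays and 3 of 10 without unstimulated array 2 or 3 or stimulated array 1 or 2. A further value moved with the groups. The excess of the actin 3' over the 5' probe sets, a sign of RNA length, was 0.351, 0.343 and 0.263 in log10 units without stimulation and 0.438, 0.520 and 0.431 with it, and its part in the results below was not tested.

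The 20 largest rises outside the best-known genes covered several kinds of protein. Spry1, a Sprouty protein that dampens Ras signalling, was at 3.45, 3.93 and 1.89 on the unstimulated arrays 1 to 3 and at 6.09, 6.79 and 6.83 on the stimulated arrays, a difference of 3.48 ± 0.45 (adjusted p = 0.000409). Gch1, the first enzyme of tetrahydrobiopterin synthesis, went from 6.30, 6.32 and 4.6 to 9.13, 9.24 and 9.29, a difference of 3.48 ± 0.38 (adjusted p = 0.000171). For both genes the stimulated arrays were far above the unstimulated ones, of which array 3 was the lowest, and those of Gch1 lay close together. Sphk1, the kinase that makes sphingosine 1-phosphate, was at 1.28, 2.06 and 0.88 without and 4.08, 4.61 and 4.94 with stimulation, a difference of 3.13 ± 0.35 (adjusted p = 0.000193). Its levels on unstimulated arrays 1 and 3 were below the filter level, so the size of this rise is uncertain. The stress-responsive gene Ndrg1 went from 3.52, 3.54 and 2.76 to 6.65, 6.63 and 6.28, a difference of 3.25 ± 0.26 (adjusted p = 3.83e-05), and all 5 of its probe sets passed. Neither gene's groups came near each other.

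Some of the 20 largest rises were of secreted or membrane proteins. Mmp13, a collagenase, was at 1.63, 1.30 and 1.24 on the unstimulated arrays, near the filter level, and at 4.85, 4.74 and 5.00 on the stimulated ones (3.47 ± 0.40, adjusted p = 0.000224). Hbegf, an epidermal growth factor receptor ligand that is shed from the membrane, went from 4.23, 5.37 and 2.28 to 7.33, 7.24 and 7.10 (3.26 ± 0.57, adjusted p = 0.00177), and by 2.42 without unstimulated array 3. Penk, the precursor of enkephalins, went from 4.90, 5.08 and 2.60 to 7.47, 7.05 and 6.66 (2.87 ± 0.55, adjusted p = 0.00302). The unstimulated levels of Hbegf and Penk were lowest on array 3, by a wide margin, yet the groups did not overlap. Sema7a, a membrane-anchored semaphorin, rose by 3.00 ± 0.34, the adhesion receptor Crtam by 2.38 ± 0.36, and the homophilic receptor Slamf1 by 2.42 ± 0.31.

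The others were of mixed function. Chac1, which degrades glutathione, went from 3.29, 3.76 and 2.63 to 6.03, 6.22 and 6.31 (2.96 ± 0.26, adjusted p = 5.36e-05). Bcat1, the cytosolic branched-chain aminotransferase, went from 4.61, 4.97 and 3.15 to 7.10, 7.33 and 7.09 (2.93 ± 0.35, adjusted p = 0.000285). Trib3, a pseudokinase of the same stress response as Chac1, was one of the few strong genes whose unstimulated values lay close together, at 2.98, 3.12 and 2.78, against 5.09, 5.64 and 5.82 after stimulation. Rises of 3.43 ± 0.41 for the polo-like kinase Plk2, 2.56 ± 0.43 for hexokinase 2 (Hk2), 2.37 ± 0.51 for the survival kinase Pim3 and 2.48 ± 0.48 for the transcriptional repressor Zeb2 also passed. Serpinb6b, an intracellular protease inhibitor with close relatives in the genome, rose by 3.06 ± 0.33; Rgcc and Nkain1 by 2.71 ± 0.50 and 2.55 ± 0.43.

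**Figure D2:**
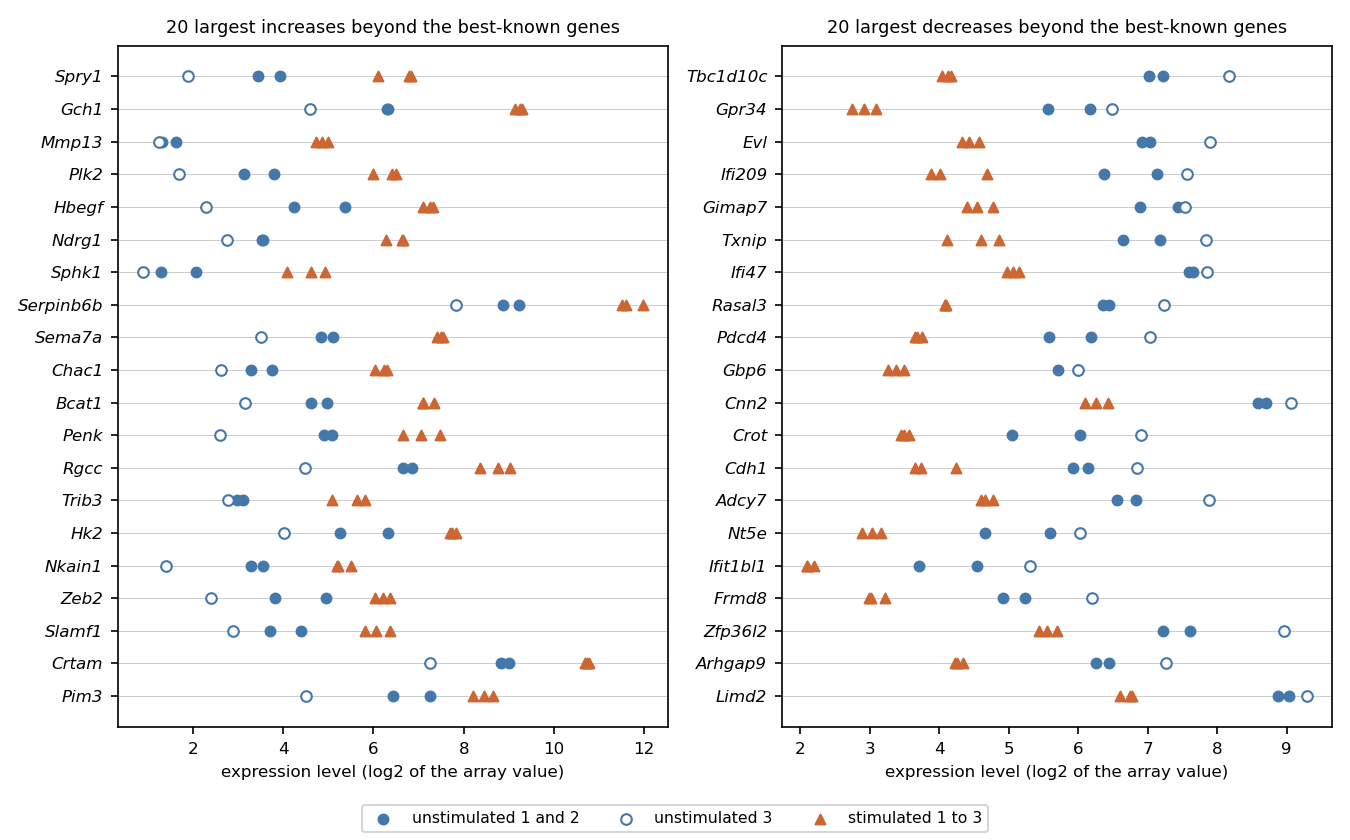
Log2 level (x axis) of the 20 genes with the largest rises (left) and the 20 with the largest falls (right) among genes outside the best-known set that also passed without unstimulated array 3 and with the experiment as a block. Triangles are the 3 stimulated arrays, filled circles unstimulated arrays 1 and 2, and open circles unstimulated array 3, which is the unstimulated array farthest from the stimulated ones for most of the genes.

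The 20 largest falls outside the best-known genes were also of several kinds. Tbc1d10c (carabin), an inhibitor of calcineurin and Ras, was at 7.22, 7.02 and 8.16 on the unstimulated and at 4.04, 4.12 and 4.17 on the stimulated arrays, a difference of -3.36 ± 0.27 (adjusted p = 3.83e-05). Rasal3, a GTPase-activating protein for Ras, went from 6.35, 6.45 and 7.24 to 4.08, 4.10 and 4.09 (-2.59 ± 0.21, adjusted p = 3.83e-05). The stimulated values of Rasal3 were almost equal. Pdcd4, which holds back translation by binding the helicase eIF4A, went from 6.18, 5.57 and 7.03 to 3.66, 3.75 and 3.68 (-2.57 ± 0.29, adjusted p = 0.000199), and Txnip, which restrains glucose uptake, from 7.17, 6.65 and 7.84 to 4.86, 4.61 and 4.12 (-2.69 ± 0.28, adjusted p = 0.000156). Unstimulated array 3 was the highest for all of these, and without it the differences of Pdcd4 and Txnip were -2.18 and -2.38.

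Cytoskeletal genes fell beside them. Evl, an Ena/VASP protein that promotes actin filament growth, went from 7.03, 6.92 and 7.90 to 4.44, 4.32 and 4.57 (-2.84 ± 0.24, adjusted p = 4.42e-05). Coro1a, the coronin of leukocytes, went from 11.36, 11.03 and 11.52 to 9.12, 9.05 and 9.28 (-2.16 ± 0.15, adjusted p = 2.08e-05), with a gap between the groups far wider than the spread in either. Calponin 2 (Cnn2) fell by 2.52 ± 0.18, the GTPase-activating protein Arhgap9 by 2.37 ± 0.23 on all 4 of its probe sets, and the LIM domain gene Limd2 by 2.36 ± 0.15. Among membrane proteins, the lysophosphatidylserine receptor Gpr34 fell by 3.15 ± 0.28, E-cadherin (Cdh1) by 2.43 ± 0.26, the adenylyl cyclase Adcy7 by 2.41 ± 0.28 and the ecto-5'-nucleotidase CD73 (Nt5e) by 2.40 ± 0.28. Crot, a peroxisomal carnitine acyltransferase, fell by 2.48 ± 0.37.

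Falls of interferon-inducible genes were among the most regular. Gbp6, a guanylate-binding protein, was at 5.71, 5.99 and 6.0 on the unstimulated and at 3.49, 3.26 and 3.38 on the stimulated arrays (-2.52 ± 0.13, adjusted p = 7.54e-06), and Ifi47, an immunity-related GTPase, at 7.60, 7.66 and 7.85 and 4.98, 5.06 and 5.15 (-2.64 ± 0.18, adjusted p = 2.40e-05). Unstimulated array 3 did not stand out for these genes, and without it the differences were -2.47 and -2.56. Sting1, the receptor for cyclic dinucleotides, went from 5.74, 5.78 and 5.72 to 3.84, 3.89 and 4.04 (-1.82 ± 0.12, adjusted p = 1.86e-05). Ifi209 and Ifit1bl1 fell by 2.83 ± 0.29 and 2.38 ± 0.32. Gbp6, Ifi209 and Ifit1bl1 belong to families of similar sequence, so their probe sets may also read relatives.

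Of the 6 genes with the most regular rises 1, Ndrg1, was also among the 20 largest rises. Eif4ebp1, the repressor of cap-dependent translation that mTORC1 inactivates, was at 5.58, 5.51 and 5.65 without and 7.64, 7.83 and 7.78 with stimulation (2.17 ± 0.13, adjusted p = 1.50e-05). Cars, the cysteinyl-tRNA synthetase, went from 4.45, 4.28 and 4.22 to 5.85, 6.02 and 6.06 (1.66 ± 0.12, adjusted p = 2.69e-05). The scaffold gene Mpp7 rose by 1.64 ± 0.12, Pdzk1ip1 by 2.07 ± 0.16 and Prrg4 by 1.50 ± 0.11. For these 5 genes unstimulated array 3 was close to the other two, and leaving it out moved each difference by less than its SE.

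Nutrient carriers, some of them of mitochondria or lysosomes, rose more often than they fell. Of 18 amino acid transporters 10 rose and 1 fell, against 14.3% and 17.3% of all genes tested. Their median difference was 0.62, against 0.0025 over all genes. Slc1a4, a carrier of small neutral amino acids, was at 2.41, 2.41 and 1.97 without and 4.26, 4.65 and 4.82 with stimulation (2.31 ± 0.19, adjusted p = 4.60e-05). The 2 chains of the large neutral amino acid transporter rose together: Slc7a5 went from 5.51, 6.48 and 5.45 to 7.06, 7.46 and 7.64 (1.57 ± 0.27, adjusted p = 0.00172) and Slc3a2 from 7.11, 7.54 and 6.58 to 8.61, 8.82 and 8.84 (1.68 ± 0.22, adjusted p = 0.00045). The cationic carrier Slc7a3 rose by 1.69 ± 0.19, with all values of each group within a narrow band. Slc38a9, a lysosomal arginine sensor, was the 1 that fell, by 0.59 ± 0.18 (adjusted p = 0.0248), and it no longer passed without unstimulated array 1 or 3 or stimulated array 1 or 2 (without unstimulated array 3, -0.54, adjusted p = 0.0787). Without unstimulated array 3 the count was 9 rising and 0 falling.

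Of 21 other carriers with a probe set 14 rose and 0 fell (median 0.64), against 14.3% and 17.3% of all genes tested. Without unstimulated array 3, 11 rose and 1 fell. The transferrin receptor Tfrc, which imports iron, went from 7.84, 8.21 and 6.94 to 9.09, 9.18 and 9.05 (1.44 ± 0.25, adjusted p = 0.00178). Slc25a33, a mitochondrial carrier of pyrimidine nucleotides, went from 4.39, 4.87 and 2.90 to 6.13, 6.15 and 6.09 (2.07 ± 0.38, adjusted p = 0.00246), and the zinc importer Slc39a10 and the folate carrier Slc19a1 rose by 1.51 ± 0.24 and 1.42 ± 0.24. Unstimulated array 3 was the lowest for all of these, and without it the rises were 1.08, 1.49, 1.19 and 1.09. When arrays were scaled to the spiked hybridization controls, which adds the spread of those controls to every value, 9 of the 21 rose.

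Genes of traffic through the nuclear pore had smaller differences. Of 29 import and export factors 14 rose and 1 fell (median 0.32), against 14.3% and 17.3% of all genes tested. Xpot, the exportin of tRNA, went from 6.30, 6.67 and 5.78 to 7.99, 8.07 and 8.03 (1.78 ± 0.19, adjusted p = 0.000176). Importin 5 (Ipo5) rose by 1.12 ± 0.13, importin 4 (Ipo4) by 1.41 ± 0.29, and Rcc1, which charges Ran with GTP, by 1.31 ± 0.20. Xpo1, the main exportin of proteins, went the other way, from 7.28, 7.24 and 7.69 to 6.71, 6.53 and 6.69 (-0.76 ± 0.15, adjusted p = 0.00342), and its groups did not overlap. The number that rose was 11 without unstimulated array 3, 8 without stimulated array 2, 9 without stimulated array 3 and 6 with control scaling. Of 26 nucleoporins 11 rose and 1 fell (median 0.36), against the same shares of all genes, 14.3% and 17.3%. Nup160, of the scaffold of the pore, rose by 0.85 ± 0.14 and the mRNA export factor Rae1 by 0.85 ± 0.16, whereas the membrane nucleoporin Nup210 fell by 0.73 ± 0.18 (adjusted p = 0.0116). With the mean of a gene's probe sets in place of the brightest, Rae1 (adjusted p = 0.0683) and Nup210 (adjusted p = 0.325) did not pass. The count was 7 without unstimulated array 1 or 3 or stimulated array 1 or 3, and it was 4 with control scaling.

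RNA polymerase III, which makes tRNA and 5S rRNA, showed both directions. Of 21 subunits and factors 9 rose and 6 fell (median 0.25), against 14.3% and 17.3% of all genes tested. The counts were 7 and 5 without unstimulated array 3, and 5 and 5 with control scaling. Maf1, the repressor of this polymerase, was at 6.05, 5.56 and 6.40 without and 4.50, 4.50 and 4.37 with stimulation (-1.54 ± 0.18, adjusted p = 0.00026). A pair of alternative subunits moved in opposite directions. Polr3g, the form of growing cells, went from 3.48, 3.52 and 2.53 to 4.55, 4.26 and 4.34 (1.21 ± 0.23, adjusted p = 0.00286), and Polr3gl from 4.06, 3.93 and 4.15 to 3.03, 2.88 and 2.99 (-1.08 ± 0.17, adjusted p = 0.000912). Neither pair of groups overlapped. Polr3d and Polr3e rose by 1.35 ± 0.25 and 1.33 ± 0.30, and the small subunit Polr3k and the 5S rRNA factor Gtf3a fell by 0.72 ± 0.14 and 0.74 ± 0.14. Polr3e did not pass with the mean of its probe sets (adjusted p = 0.332).

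Enzymes that modify tRNA and rRNA rose in 17 of 32 cases and fell in 1 (median 0.66), against 14.3% and 17.3% of all genes tested. Without unstimulated array 3 the counts were 16 and 1. The pseudouridine synthase Pus7 went from 4.79, 5.58 and 3.46 to 6.59, 6.36 and 6.34 (1.82 ± 0.40, adjusted p = 0.00572). Dimt1, which methylates 18S rRNA, went from 5.09, 5.09 and 3.86 to 6.28, 6.32 and 6.32 (1.62 ± 0.27, adjusted p = 0.00145), and Trmt61a, a tRNA methyltransferase, rose by 1.50 ± 0.30. The stimulated values of these genes lay close together, and unstimulated array 3 was the lowest. Trmt112, a cofactor shared by several methyltransferases, fell by 0.72 ± 0.13 (adjusted p = 0.00197), but did not pass with the mean of its probe sets (adjusted p = 0.0867).

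Related enzymes of nucleotide synthesis moved in opposite directions. Of 22 genes of purine and pyrimidine synthesis 12 rose and 4 fell (median 0.55), against 14.3% and 17.3% of all genes tested. The share that fell lies near that of all genes. CTP synthase 1 (Ctps) went from 6.21, 6.30 and 4.78 to 7.29, 7.27 and 7.17 (1.48 ± 0.32, adjusted p = 0.00533), and its relative Ctps2 from 4.82, 4.51 and 4.94 to 3.92, 3.72 and 3.83 (-0.93 ± 0.14, adjusted p = 0.000833). The phosphoribosyl pyrophosphate synthetase Prps1 rose by 1.06 ± 0.18, and Prps2 fell by 0.79 ± 0.17. Ctps2 did not pass with the mean of its probe sets (adjusted p = 0.0586), nor Prps2 without experiment 3 in both groups (adjusted p = 0.0677). The rise of Ctps was 0.98 without unstimulated array 3, which was far below the other unstimulated arrays. The serine hydroxymethyltransferases Shmt1 and Shmt2, which feed carbon units into purines and thymidylate, both rose, by 1.49 ± 0.21 and 1.22 ± 0.14. Counts were 8 and 3 without unstimulated array 3, 7 rising without stimulated array 2, and 2 falling without unstimulated array 1 or with control scaling.

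Among genes of protein folding and mitochondrial import many rose and none fell. Of 27 genes of mitochondrial import and folding 17 rose and 0 fell (median 0.79), against 14.3% and 17.3% of all genes tested. Without unstimulated array 3 the counts were 16 and 0. Hspa9, the mitochondrial Hsp70, went from 7.64, 7.90 and 7.09 to 9.01, 8.96 and 8.92 (1.42 ± 0.19, adjusted p = 0.000514), and Hspd1, the mitochondrial chaperonin, from 8.65, 9.09 and 8.15 to 9.83, 9.84 and 9.77 (1.18 ± 0.21, adjusted p = 0.00185). Tomm40, the channel of the outer membrane, rose by 1.24 ± 0.23. The groups of these genes did not overlap. Of 19 genes of the cytosolic chaperonin, prefoldin and their partners 12 rose and 0 fell (median 0.46), against the same shares of all genes. The number that rose was 9 without unstimulated array 3 and 4 with control scaling. Among the 12 were 7 of the 8 chaperonin subunits, with rises from 0.43 for Tcp1 to 0.87 for Cct6a, and Cct4 at 0.22 did not pass. Splicing factors of the SR and hnRNP families mostly did not pass. Of 30, 8 rose and 1 fell (median 0.16), against 14.3% and 17.3% of all genes tested. With control scaling 3 rose. Hnrnpab rose by 0.98 ± 0.17, Srsf2 by 0.78 ± 0.19 (without experiment 3 in both groups, adjusted p = 0.0632), and Nono fell by 0.75 ± 0.15. The number that fell was 2 with the experiment as a block or without stimulated array 3, and 3 without unstimulated array 1.

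Genes tied to lymphocyte rest fell more often than they rose. Of 29 quiescence regulators 14 fell and 5 rose (median -0.65), against 17.3% and 14.3% of all genes tested. The share that rose lies near that of all genes. Without unstimulated array 3 the counts were 14 and 2. The cell cycle inhibitor p27 (Cdkn1b) was at 4.10, 3.21 and 5.26 without and 2.15, 1.95 and 1.82 with stimulation (-2.22 ± 0.39, adjusted p = 0.00179). Cdkn2c, the inhibitor p18, went from 5.53, 5.14 and 6.23 to 3.77, 3.81 and 3.50 (-1.94 ± 0.27, adjusted p = 0.000583), and Rbl2, the pocket protein p130, from 5.34, 5.27 and 6.38 to 3.82, 3.96 and 4.19 (-1.67 ± 0.27, adjusted p = 0.00123). Unstimulated array 3 had the highest level of all of them. Against that direction, Slfn2, which keeps T cells from spontaneous activation, rose from 8.27, 8.29 and 8.08 to 9.79, 9.86 and 9.71 (1.58 ± 0.14, adjusted p = 5.81e-05), and Foxp1, a repressor of activation, rose by 0.99 ± 0.12 on 6 of 8 probe sets. The count that rose was also lower without unstimulated array 1 or stimulated array 2 or 3 (3), without stimulated array 1 (2), with the experiment as a block (3) and with control scaling (2).

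The GIMAP genes, a cluster of lymphocyte GTPases that support T cell survival, fell in 7 of 8 cases (median -1.50), against 17.3% of all genes tested. Without unstimulated array 3 they fell in 8 of 8 cases (median -1.34). Gimap7 went from 7.43, 6.88 and 7.54 to 4.78, 4.55 and 4.40 (-2.71 ± 0.21, adjusted p = 3.80e-05), Gimap4 from 9.77, 9.87 and 10.14 to 8.14, 8.0 and 7.84 (-1.93 ± 0.16, adjusted p = 4.38e-05) and Gimap6 from 8.19, 7.80 and 8.28 to 6.44, 6.31 and 6.32 (-1.73 ± 0.14, adjusted p = 3.86e-05). Every stimulated value of these genes was below every unstimulated one. Gimap5 differed least, at -0.38, and was the 1 that did not pass. The members are similar in sequence and lie side by side in the genome, so probe sets may read more than 1 of them.

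Regulators of small G proteins fell in 17 of 31 cases and rose in 3 (median -0.79), against 17.3% and 14.3% of all genes tested. Without unstimulated array 3 the counts were 16 and 3. The GTPase-activating protein Arhgap45 went from 5.18, 4.90 and 6.32 to 3.47, 3.06 and 3.12 (-2.24 ± 0.30, adjusted p = 0.000459). Rasgrp1, the diacylglycerol-gated activator of Ras in T cells, went from 6.28, 6.30 and 6.24 to 4.61, 4.39 and 4.74 (-1.69 ± 0.13, adjusted p = 3.31e-05), without any gap between unstimulated array 3 and the others. The Ras GTPase-activating proteins Rasa3 and Rasa2 moved apart: Rasa3 fell by 1.98 ± 0.24, from 4.64, 4.26 and 5.43 to 2.78, 2.78 and 2.82, and Rasa2 rose by 1.09 ± 0.16, from 5.25, 5.19 and 4.82 to 6.20, 6.18 and 6.15. Dock10, an activator of Cdc42, also rose, by 0.96 ± 0.17.

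Among 25 RGS proteins and G protein coupled receptors 13 fell and 6 rose, against 17.3% and 14.3% of all genes tested. The counts were the same without unstimulated array 3 (medians -0.62 with it and -0.64 without it). The risers included RGS proteins, which shorten G protein signals: Rgs1 went from 8.99, 9.12 and 7.96 to 10.60, 10.53 and 10.36 (1.81 ± 0.25, adjusted p = 0.000606), Rgs2 rose by 1.80 ± 0.24 and Rgs16 by 1.65 ± 0.35. Receptors for lipids and chemokines moved in both directions. S1pr1, the sphingosine 1-phosphate receptor that draws lymphocytes out of lymph nodes, went from 3.38, 3.17 and 4.89 to 2.07, 2.15 and 1.74 (-1.82 ± 0.39, adjusted p = 0.00499), and its relative S1pr4 from 5.52, 4.62 and 6.08 to 3.60, 3.48 and 3.49 (-1.88 ± 0.29, adjusted p = 0.000897). Sphk1, the enzyme that makes their ligand, had risen on the same arrays. The fall of S1pr1 was -1.28 without unstimulated array 3. P2ry10, a lysophospholipid receptor, fell by 1.85 ± 0.22, and the chemokine receptor Cxcr3 by 1.78 ± 0.39, whereas the chemokine receptor Ccr7 rose by 0.83 and the prostaglandin receptor Ptger2 by 1.00 (both named after their values were seen). The proton-sensing receptor Gpr65 rose by 1.32 ± 0.30, or by 0.85 without unstimulated array 3.

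**Figure D3:**
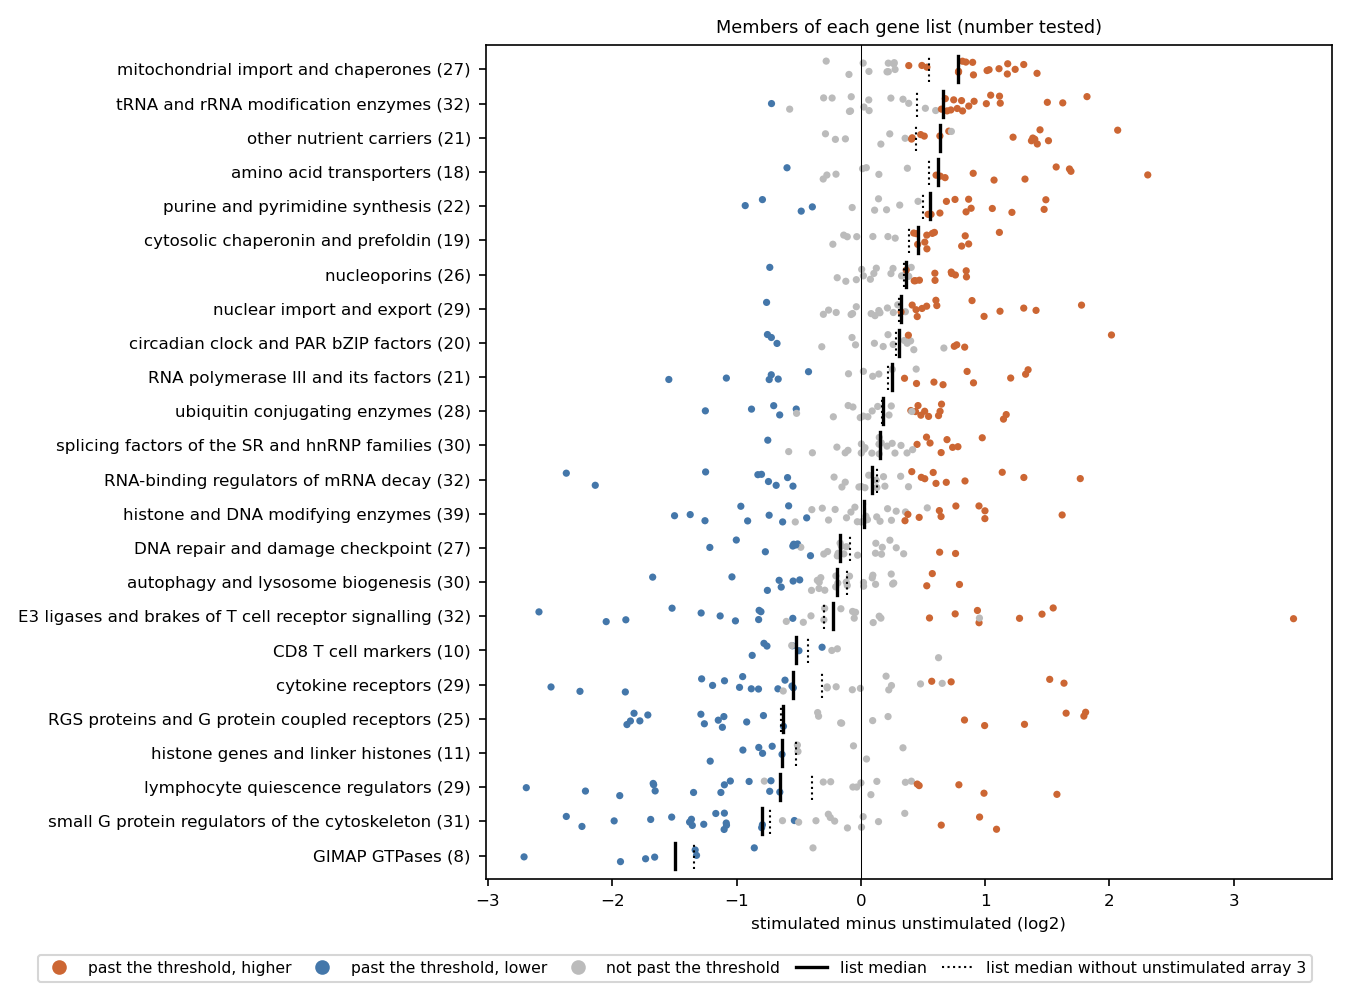
Log2 difference (stimulated minus unstimulated, x axis) of each tested member of 24 gene lists, ordered by the list median (solid bar), with the median without unstimulated array 3 (dotted bar). Orange and blue points passed the threshold and grey points did not. The GIMAP genes lie lowest and mitochondrial import genes highest, and several lists hold members of both directions.

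Brakes of T cell receptor signalling moved in both directions. Of 32 ubiquitin ligases, phosphatases, kinases and adaptors of this kind 8 rose and 11 fell (median -0.23), against 14.3% and 17.3% of all genes tested. Without unstimulated array 3 the counts were 7 and 10. Beside Spry1, the risers included Socs3, an inhibitor of cytokine receptors (2.52, 2.93 and 2.55 to 4.49, 4.11 and 4.04, 1.55 ± 0.17, adjusted p = 0.000192), Sla, an adaptor that lowers receptor levels (1.46 ± 0.20), and Spred1, which inhibits Raf activation (1.28 ± 0.21). The phosphatase SHP-1 (Ptpn6) was at 8.06, 8.06 and 8.05 without and 5.88, 5.98 and 6.16 with stimulation (-2.05 ± 0.16, adjusted p = 3.83e-05), with unstimulated values that were almost equal. Dgka, which removes diacylglycerol, fell by 1.89 ± 0.24, and the adaptor Dok2 by 1.52 ± 0.16. Socs3, Sla, Spred1, Ptpn6, Dgka and Dok2 passed under all 17 alternatives run.

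Regulators of mRNA decay also moved in both directions, with 10 of 32 higher and 9 lower (median 0.09), against 14.3% and 17.3% of all genes tested. The counts were 8 and 7 without unstimulated array 3, and 5 and 7 with control scaling. The endonucleases regnase-1 (Zc3h12a) and its relative Zc3h12c rose by 1.14 ± 0.19 and 1.31 ± 0.27 (the latter without experiment 3 in both groups, adjusted p = 0.0665), and roquin-1 (Rc3h1), which binds stem-loops in cytokine mRNA, went from 4.62, 4.56 and 4.37 to 5.22, 5.25 and 5.59 (0.84 ± 0.14, adjusted p = 0.00139). Zfp36l2, which targets AU-rich mRNA for decay, went from 7.61, 7.22 and 8.96 to 5.44, 5.55 and 5.69 (-2.37 ± 0.36, adjusted p = 0.000914). Tnrc6b, a partner of Argonaute, went from 4.32, 3.86 and 5.00 to 2.33, 2.03 and 2.41 (-2.14 ± 0.26, adjusted p = 0.000315), and the exonuclease Xrn1 fell by 1.25 ± 0.16. None of these values came from groups that overlapped. Noct, a phosphatase of nicotinamide dinucleotides related to deadenylases, rose by 1.77 ± 0.23.

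Cytokine receptors fell in 14 of 29 cases and rose in 4 (median -0.54), against 17.3% and 14.3% of all genes tested. The share that rose lies near that of all genes. Counts of falls and rises were 13 and 4 without unstimulated array 3, and 10 and 2 with control scaling. The interferon gamma receptor chain Ifngr1 went from 7.21, 6.69 and 7.10 to 4.69, 4.47 and 4.36 (-2.49 ± 0.20, adjusted p = 3.83e-05), and the TGF-beta receptor Tgfbr2 from 8.03, 7.97 and 8.36 to 5.73, 5.78 and 6.08 (-2.26 ± 0.14, adjusted p = 1.50e-05). Il10rb and Ifnar1, chains of the interleukin 10 and type I interferon receptors, fell by 1.90 ± 0.18 and 1.28 ± 0.23. All these stimulated values lay below all unstimulated ones. The decoy receptor Il1r2 went the other way, from 2.48, 2.29 and 1.82 to 3.69, 3.82 and 3.98 (1.64 ± 0.17, adjusted p = 0.000156), as did the interleukin 2 receptor alpha chain Il2ra, by 1.52 ± 0.33.

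Of 39 enzymes that modify histones and DNA 10 rose and 9 fell (median 0.03), against 14.3% and 17.3% of all genes tested (6 and 7 without unstimulated array 3, 4 and 6 with control scaling, and 6 rising without unstimulated array 1 or stimulated array 2). The DNA methyltransferases moved apart: Dnmt3a, which methylates unmodified sites, went from 5.45, 5.62 and 4.87 to 6.04, 6.29 and 6.46 (0.95 ± 0.20, adjusted p = 0.00428), and Dnmt1, which copies methylation after replication, from 5.30, 5.45 and 6.57 to 4.38, 4.39 and 4.43 (-1.37 ± 0.27, adjusted p = 0.00335). All 5 probe sets of Dnmt3a and all 3 of Dnmt1 passed in these directions. Tet2, which oxidises methylcytosine, and the H3K79 methyltransferase Dot1l rose by 1.00 ± 0.20 and 1.00 ± 0.19 (Tet2 with the mean of its probe sets, adjusted p = 0.148), and the methyltransferase Ehmt2 and the acetyltransferase Kat2b fell by 1.50 ± 0.24 and 1.25 ± 0.20.

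Of 30 genes of autophagy and lysosome biogenesis 7 fell and 3 rose (median -0.19), where 17.3% of all genes tested fell and 14.3% rose, so the shares lie near those of all genes (6 and 3 without unstimulated array 3, 5 and 1 with control scaling). Map1lc3b, the LC3 protein of autophagosomes, went from 7.83, 7.58 and 7.92 to 6.79, 6.71 and 6.72 (-1.04 ± 0.13, adjusted p = 0.000357), and Tecpr1, which helps autophagosomes fuse with lysosomes, fell by 1.68 ± 0.27. Gabarapl1, of the same family as LC3, rose by 0.79 ± 0.19.

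The promoters of 6 gene lists were read for short motifs. The RefSeq promoter table, on the mouse build GRCm38.p6, holds 250 bases before to 50 after the start of a gene and covered 11870 of the 14795 genes tested. Both strands were searched, and the first entry of a gene was used. No motif's letters contain another motif, though a match of TTTGAA can overlap one of GAAANNGAAA. The amino acid response element TGATGNAA, which ATF4 and its partners bind, was in 7 of 20 promoters of amino acid response and serine synthesis genes (35%) and in 2.55% of all 11870. Of the 21 tested genes of that list 18 rose and 0 fell (17 and 0 without unstimulated array 3). The element bound by cell cycle repressor complexes, TTTGAA, was in 27 of 35 promoters of mitosis genes (77.1%) and in 12.5% of all, and 36 of the 40 tested genes of that list fell (33 without unstimulated array 3). The box CCAAT was in 26 of these 35 (74.3%) and in 38.1% of all. The interferon response element GAAANNGAAA was in 11 of 22 promoters of type I interferon response genes (50%) and in 2.99% of all, and 19 of 32 fell (17 without that array). The element was in 5 of the 13 promoters of members that fell, a smaller share than in the whole list. The E-box CACGTG was in 7 of 37 promoters of ribosome biogenesis genes (18.9%), in 9.46% of all and in 14.01% of the genes that rose, and 41 of 42 rose (38 without that array). The AP-1 site TGANTCA was in 8 of 26 promoters of cytokines and chemokines (30.8%), in 5.82% of all, and in 0 of 29 promoters of immediate early factors. A kappaB site, GGGANTTTCC, was in 3 of the 26 (11.5%) and in 0.371% of all. The letters TGACG of the CREB site were in 15 of the 29 (51.7%) and in 29.5% of all. Of the 36 immediate early factors tested 19 rose and 1 fell (18 and 2 without unstimulated array 3, 18 and 4 with the experiment as a block), and of the 32 cytokines and chemokines 17 rose and 4 fell (17 and 3 without unstimulated array 3). With all arrays 14.3% of all genes tested rose and 17.3% fell. Among the 1713 genes with a promoter that rose, 2.57% held the amino acid response element, 5.49% the AP-1 site and 0.584% the kappaB site. The letters of the CREB site were in 35.7% of them. Of the 2079 that fell, 13.7% held the cell cycle element, 39.1% the second mitosis box and 4.14% the interferon element. The shares of the amino acid response element and the AP-1 site lay near those in all genes. Whether any motif took part in the response was not tested.

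**Figure D4:**
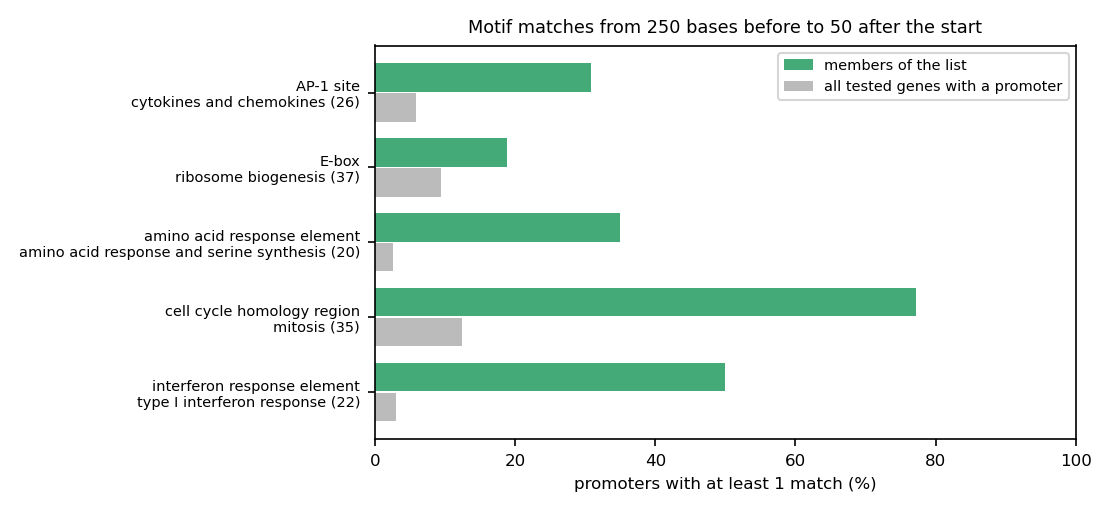
Share of promoters with at least 1 match (x axis, %) for 5 motifs, in the list each was searched for (green, number of promoters in brackets) and in all 11870 tested genes with a promoter (grey). The green bar is the longer one in each of the 5 pairs, and the gap is smallest for the E-box.

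To show where these letters lie, stretches of up to 124 bases are printed for the changed genes of each list with the largest differences whose match lies before the start. They were picked after their values were seen. The motif is in capitals and may read on either strand. Differences of these genes were 2.96 ± 0.26 for Chac1, 3.05 ± 0.41 for the stress factor Atf3, 2.11 ± 0.17 for asparagine synthetase (Asns), -1.55 ± 0.25 for cyclin B2 (Ccnb2), -1.4 ± 0.22 for the spindle motor Kif11, -1.38 ± 0.21 for the topoisomerase Top2a, -1.06 ± 0.22 for the TRIM family gene Trim30a, -0.98 ± 0.22 for the RNA sensor Oas3, 1.47 ± 0.31 for the rRNA methyltransferase Nop2, and at least 4.84 for Il1a, an interleukin 1 cytokine. The genome positions are chr2:119350992-119351100 (plus strand) for Chac1, chr1:191183392-191183513 (minus strand) for Atf3, chr6:7693181-7693302 (minus strand) for Asns, chr9:70421672-70421791 (minus strand) for Ccnb2, chr19:37376293-37376411 (plus strand) for Kif11, chr11:99024163-99024282 (minus strand) for Top2a, chr7:104465176-104465299 (minus strand) for Trim30a, chr5:120777681-120777804 (minus strand) for Oas3, chr6:125131753-125131872 (plus strand) for Nop2 and chr2:129309943-129310054 (minus strand) for Il1a. The match begins 193, 110, 23, 167, 19, 23, 36, 75, 60 and 12 bases before the start, in the same order.
Chac1: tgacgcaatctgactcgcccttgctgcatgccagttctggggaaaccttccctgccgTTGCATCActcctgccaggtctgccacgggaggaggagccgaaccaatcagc
Atf3: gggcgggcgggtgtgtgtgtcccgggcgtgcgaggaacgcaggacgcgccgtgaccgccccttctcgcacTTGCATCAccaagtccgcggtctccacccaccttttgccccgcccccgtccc
Asns: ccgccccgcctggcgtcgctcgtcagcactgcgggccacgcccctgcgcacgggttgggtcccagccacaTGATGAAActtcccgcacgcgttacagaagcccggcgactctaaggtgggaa
Ccnb2: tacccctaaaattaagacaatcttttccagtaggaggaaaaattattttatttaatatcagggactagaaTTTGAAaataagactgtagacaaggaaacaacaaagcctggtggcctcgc
Kif11: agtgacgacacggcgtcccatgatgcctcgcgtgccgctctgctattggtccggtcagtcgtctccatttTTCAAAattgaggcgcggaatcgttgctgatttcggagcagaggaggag
Top2a: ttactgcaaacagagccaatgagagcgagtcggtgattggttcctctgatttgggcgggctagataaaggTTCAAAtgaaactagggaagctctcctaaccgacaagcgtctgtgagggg
Trim30a: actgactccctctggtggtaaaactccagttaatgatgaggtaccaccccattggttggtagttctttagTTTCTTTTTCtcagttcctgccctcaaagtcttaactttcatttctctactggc
Oas3: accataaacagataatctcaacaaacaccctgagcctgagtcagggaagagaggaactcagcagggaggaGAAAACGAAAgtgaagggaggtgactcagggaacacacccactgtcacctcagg
Nop2: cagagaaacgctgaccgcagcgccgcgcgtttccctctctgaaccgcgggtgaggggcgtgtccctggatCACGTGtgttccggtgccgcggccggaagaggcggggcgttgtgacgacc
Il1a: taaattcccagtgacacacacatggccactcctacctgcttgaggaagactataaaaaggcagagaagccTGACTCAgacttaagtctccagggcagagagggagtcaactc

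The best-known activation genes were not left out of the test. Of 123 such genes tested, 60 rose and 20 fell, against 14.3% and 17.3% of all genes tested, so the share that fell lies near that of all genes. Il3 had the largest rise, from 5.6, 5.92 and 1.78 to 12.03, 12.68 and 12.42 (7.94 ± 0.84, adjusted p = 0.000156), or 6.61 without unstimulated array 3. Il2 rose by 7.05 ± 0.68, the chemokine Ccl9 by 4.82 ± 0.93 and the cytokines Il24 and Csf2 by 4.54 ± 0.38 and 4.41 ± 0.81. Il1a, an interleukin 1 cytokine, did not reach the filter level without stimulation (1.16, 1.4 and 0.87) and was at 6.04, 6.46 and 6.63 after stimulation, so its rise, against that level, was at least 4.84.

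Among the named genes that rose, unstimulated array 3 moved cytokines most. Ccl9 was at 6.70, 7.22 and 2.42 on the unstimulated arrays and at 10.18, 10.43 and 10.17 on the stimulated arrays. Without array 3 its difference went from 4.82 to 3.30, and that of Csf2, at 8.58, 9.32 and 5.09 without stimulation, from 4.41 to 3.12. Both remained past the threshold. The chemokine Ccl1 (2.36 and 1.50 without it), the adhesion gene Mpzl2 (2.26 and 1.39) and Tnfsf11 (RANK ligand, 3.03 and 2.18) were moved in the same direction. On array 3 these genes were at their lowest unstimulated level. Other cytokines that did not pass with all arrays also moved. Ccl3 went from 2.37 (adjusted p = 0.0837) to 0.82 without array 3, where it passed (adjusted p = 0.0142). Ifng went from 1.49 (adjusted p = 0.218) to 0.12 (adjusted p = 0.732). In the other direction, array 3 held the highest levels of the p53 target Trp53inp1 (6.49, 5.14 and 7.58), of the nuclear RNA Neat1 (4.39, 4.43 and 6.05), of cyclin G2 (Ccng2, 5.10, 4.00 and 6.20) and of Card6 (4.13, 3.24 and 5.42). Their differences moved from -1.72 to -1.14, from -2.03 to -1.49, from -1.67 to -1.12 and from -1.82 to -1.24. Trp53inp1 no longer passed without array 3 (adjusted p = 0.122), nor without unstimulated array 1 or stimulated array 1 or 2. Ccng2 did not pass without experiment 3 in both groups (adjusted p = 0.095).

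A bounded small change was measured for 2937 genes (19.9% of those tested), whose 95% interval lay within -0.5 and 0.5. The brightest were ribosomal protein genes and a T cell receptor segment. Rpsa was at 13.64, 13.76 and 13.81 without and 13.72, 13.95 and 13.61 with stimulation, Rpl38 at 13.72, 13.81 and 13.72 and 13.68, 13.61 and 13.81, and Trbv1, of the receptor beta locus, at 13.25, 13.25 and 13.21 and 13.15, 13.25 and 13.15. Their differences were 0.02 ± 0.14, -0.05 ± 0.13 and -0.06 ± 0.13.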

How the data were processed

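RNA was hybridised to Affymetrix mouse arrays, 1 colour, and processed by the authors in Affymetrix Expression Console, per the submitters' processing notes. The summarization method and the log base are not given in the sources used here. The deposited values look like log10 (0 to 4.56, with the same sorted values on every array, as quantile normalization gives), and control steps of 0.965, 0.800 and 1.70 per factor of 10 in concentration bracket a log10 scale. The values were multiplied by the log2 of 10, so each fold change rests on that reading. A true 0 and a depth do not exist for arrays, and 3 arrays a group limit the precision.

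The platform annotation named 34945 of 45101 probe sets with 1 symbol, 932 with several and 9160 with none. Genes above the 40th percentile (1.54 on the log2 scale) on at least 2 of 11 arrays were tested with limma 3.58.1 (R 4.3.3; Python 3.11.15), lmFit and eBayes over 4 groups, two-sided, threshold 0.05. Each p-value rests on the spread within groups, between samples of independent experiments, pooled over the 4 groups and without pairing by experiment. In simulated data for this comparison (14795 genes), 72% of genes changed by 1 and 100% of those changed by 2 on the log2 scale were called. Whether these shares hold for the measured arrays, where unstimulated array 3 stood apart from its group, was not tested.

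Replicate numbers mark the experiment, as sample descriptions and the design text state, so they pair the samples. Deviations from the group means correlated at 0.103, 0.0470 and 0.0817 within experiments and at -0.128 to 0.0267 between them. The block is an alternative.

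Named genes are the 20 largest rises and falls that passed with all arrays, with the block and without unstimulated array 3, outside a list of best-known genes; the 6 most regular in each direction; up to 4 members of each list in each direction; the 6 most moved by array 3; the 6 brightest with a bounded change; and 6 best-known genes. Members, lists and motifs were chosen with earlier results of these data known. Promoters are from RefSeq, GRCm38.p6. Alternatives left out each array or experiment 3, and changed the block, the arrays in the fit, weights, the prior, the scaling, the filter, the probe set rule and the log base.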

Additional observations from a re-analysis of the deposited data

Results flagged for a closer look

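Of 225 named genes, 61 responded differently in naive-derived effectors by limma's test of the interaction (adjusted p below 0.05 over all genes, which 401 genes passed). The value given for each is the log2 response of naive-derived cells minus that of memory-derived cells. The genes had been named for large or regular memory-derived responses, and the interaction subtracts the same measurements, so the direction is partly fixed by the choice. The naive-derived groups have 3 stimulated and 2 unstimulated arrays. Every interaction value is from the fit of all 11 arrays, memory-derived unstimulated array 3 included, and was not examined without that array. An interaction also takes in any difference between unstimulated levels. Naive-derived unstimulated means were 9.15 for Gch1, 11.61 for Il2, 4.51 for Tbc1d10c and 4.07 for Txnip. In memory-derived cells these were 5.74, 3.74, 7.47 and 7.22 without stimulation and 9.22, 10.79, 4.11 and 4.53 with it. For Gbp6 (5.51 and 5.9) and Mpp7 (2.42 and 3.11) the unstimulated means lay closer. The part of unstimulated levels was not tested.

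Among best-known cytokines the interaction was -6.95 for Il3, -4.80 for Il2 and -3.90 for Il24. The fit gave -3.55 for Il1a, but its unstimulated level in memory-derived cells was below the filter level, and against that level the value is a bound, -3.16 or lower. Il3 rose by 7.94 in memory-derived cells and differed by 0.99 in naive-derived cells, whose unstimulated mean was 10.18 against 4.43 in memory-derived cells. Among signalling and membrane proteins that rose, the interaction was -2.40 for Sphk1, -2.79 for Sema7a, -1.74 for Rgs1, -1.66 for Rgs2 and -1.87 for Socs3. For the intracellular protease inhibitor Serpinb6b it was -2.91. The unstimulated memory-derived mean of Sphk1, 1.41, was below the filter level, so its value is uncertain. Metabolic and amino acid response genes that rose had values of -2.91 for Gch1, -2.50 for Ndrg1, -2.29 for Chac1, -2.51 for Bcat1, -1.33 for Eif4ebp1, -1.06 for Cars, -1.57 for Slc1a4 and -1.31 for Xpot. Other genes that rose had values of -0.87 for Prrg4, -2.0 for Mpp7, -1.63 for Pdzk1ip1, -1.0 for Slfn2, -1.58 for Ciart and -0.99 for Ube2q2.

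For regulators of signalling and small G proteins that fell, the interaction was 2.54 for Tbc1d10c, 1.96 for Rasal3, 2.01 for Rasa3, 0.96 for Rasgrp1, 1.79 for Arhgap9, 1.40 for Ptpn6, 1.69 for Dgka, 1.13 for Dok2 and 1.99 for Adcy7. Interferon-inducible genes, Sting1 and GIMAP genes that fell had values of 2.41 for Ifi209, 2.15 for Ifi47, 1.86 for Gbp6, 1.40 for Sting1, 2.06 for Gimap7, 1.28 for Gimap4, 1.47 for Gimap6 and 1.27 for Gimap9. Receptors and other membrane proteins that fell had values of 1.88 for Nt5e, 1.54 for Sema4a, 1.86 for P2ry10, 2.02 for Ifngr1, 1.95 for Tgfbr2 and 1.62 for Il10rb. For actin-linked genes that fell it was 2.20 for Evl, 1.72 for Cnn2, 1.46 for Coro1a and 2.07 for Limd2. Frmd8, which also fell, had a value of 1.84. The other genes that fell, which restrain growth or serve metabolism, RNA and protein turnover, had values of 2.33 for Txnip, 1.88 for Pdcd4, 2.52 for Crot, 1.37 for Maf1, 0.90 for Ctps2, 1.87 for Cdkn2c, 0.91 for Map1lc3b, 2.05 for Tnrc6b and 1.29 for Ube2h.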

How the results depend on the processing

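Leaving out 1 array gave 3437 to 4735 changed genes (1523 to 2126 higher) against 4675 (2119 higher). Counts moved by over 1.5 times in 3 settings: without experiment 3 in both groups 2778 changed (1268 higher, 1510 lower), with scaling to the hybridization controls 2739 (1099 and 1640), and with the experiment as a block without unstimulated array 3, an alternative chosen after seeing the data, 3014 (1407 and 1607). The last of these had 872 genes changed at least 2-fold against 1330, and reading the deposited values as natural logarithms left 77. Leaving out experiment 3 leaves fewer samples and drops unstimulated array 3, and control scaling adds the controls' own spread. The cause of the moved counts was not tested in any setting. With the replicate block 4519 genes changed (2051 higher), and with the block on the 6 memory-derived arrays 3699. Of 207 named genes that passed, 6 lost the call under the block, 13 without unstimulated array 3, 19 with control scaling and 31 without experiment 3. No named gene changed sign with a call. Over all alternatives, counts of rising members ran from 6 to 11 amino acid transporters, 9 to 15 other carriers, 6 to 17 import and export factors, 3 to 15 nucleoporins, 7 to 14 genes of nucleotide synthesis, 4 to 13 of the chaperonin and prefoldin, 3 to 11 splicing factors, 2 to 12 ubiquitin conjugating enzymes, 1 to 8 clock factors and 14 to 17 genes of mitochondrial import, and counts of falling members from 7 to 8 GIMAP genes, 15 to 19 small G protein regulators, 10 to 15 quiescence regulators and 10 to 15 cytokine receptors. Array signal over background is not given by flags in the files, so low levels near the filter are the least certain.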

Other observations

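Clock genes, which keep daily rhythms of transcription, showed both directions: of 20 tested 5 rose and 3 fell, against 14.3% and 17.3% of all genes tested (2 and 3 without unstimulated array 3, and 2 or 3 rising without stimulated array 2 or 3). Ciart, a repressor of the clock activators, went from 2.69, 2.75 and 1.74 to 4.38, 4.46 and 4.39 (2.02 ± 0.25, limma adjusted p = 0.000297), with no overlap of the groups. Per2 rose by 0.77 ± 0.20 (with the mean of its probe sets, adjusted p = 0.0653). The PAR bZIP factor Dbp and its antagonist Nfil3 both fell, by 0.75 ± 0.18 and 0.72 ± 0.15 (Dbp without experiment 3 in both groups, adjusted p = 0.077). Of 11 tested histone genes among 28 listed 6 fell and 0 rose (median -0.63), against 17.3% and 14.3% of all genes tested. H2az2 was at 7.57, 7.30 and 7.86 without and 6.49, 6.30 and 6.30 with stimulation (-1.21 ± 0.17, adjusted p = 0.000637). Macroh2a1, a variant of silent chromatin, was lower by 0.95 ± 0.16. Histone genes resemble each other, so their probe sets may be shared.

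Of 28 ubiquitin conjugating enzymes 11 rose and 5 fell (median 0.18), against 14.3% and 17.3% of all genes tested. Ube2q2 went from 4.49, 4.76 and 4.12 to 5.68, 5.61 and 5.59 (1.17 ± 0.15, adjusted p = 0.000412), and Ube2h from 5.83, 5.41 and 6.17 to 4.58, 4.46 and 4.61 (-1.25 ± 0.18, adjusted p = 0.00074). The number that rose was 6 without unstimulated array 3, 7, 5 and 5 without stimulated arrays 1, 2 and 3, and 2 with control scaling. Of 27 genes of DNA repair 8 fell and 2 rose, against 17.3% and 14.3% of all genes tested. Only 2 fell without unstimulated array 3, and 3, 2 and 5 fell without stimulated arrays 1, 2 and 3. Brca1, which directs recombination repair, fell by 1.00 ± 0.18, and the exonuclease Exo1 rose by 0.76 ± 0.14. Both passed under all 17 alternatives run.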
